A study of Mus musculus with 18 samples.

Results

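The genes described here are 47 genes of DNA replication and S phase in mouse plasmacytoid dendritic cells (pDCs), the interferon-producing dendritic cells that sense nucleic acids through TLR7 and TLR9. They were taken by symbol from a written list, which was drawn up with earlier results of these data known. The list covers the helicase and its loaders, polymerases, clamp and clamp loader, nucleotide enzymes, chromatin assembly, cyclin E with E2F, and the BRCA genes. Each matched 1 of the 54532 genes in the count table, and all 47 passed the filter on low counts.

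Bone marrow from wild-type C57BL/6 mice was grown for 7 days in Flt3L (80 ng/mL), and pDCs were enriched with B220 beads to a routine purity of 80%. The 6 groups, with 3 libraries in each, were untreated cells at 0 h, cells given the vehicle (named LAL, Limulus amebocyte lysate, in the labels) at 0 h, 6 h and 16 h, and cells given imiquimod (2.5 µg/mL), a small-molecule TLR7 agonist, for 6 h or 16 h. All 6 groups share the strain, the genotype, the cytokine and the enrichment. RNA depleted of ribosomal RNA was sequenced as paired 75-nt reads, to between 10609741 and 13447018 counts a library. Nothing in the labels ties the replicates to separate mice or cultures, and the spread behind each p-value may therefore be technical.

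Eukaryotic origins are licensed in G1, when the origin recognition complex, Cdc6 and Cdt1 load the MCM2-7 ring onto DNA, and are fired in S phase, when Cdc45 and the GINS complex join the ring to form the active helicase. Many of the genes involved are controlled by E2F factors, which the retinoblastoma family restrains until cyclin-dependent kinases, first with D-type and then with E-type cyclins, release them. Mature pDCs are commonly described as cells that divide little, whereas their precursors in Flt3L cultures divide.

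The promoters of these genes are known for E2F sites, so the letters of that site were read first. Of the 47 genes, 38 were found by symbol in a RefSeq promoter table (GRCm38.p6, the assembly called mm10), with 44 windows of 300 bases reaching from 250 before to 50 after a transcript start. The core letters TTCCCGC or TTGGCGC, on either strand, stood in 23 of the 44 windows (52.3%), belonging to 22 genes. The same letters stood in 6.81% of the 32851 windows of all genes. The NF-Y letters CCAAT, on either strand, stood in 59.1% of the windows of the listed genes and in 37.4% of all windows. A match describes letters and not a bound site.

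The 7 stretches below are shown because 6 of them belong to the genes with a match that had the largest change with imiquimod at 16 h, and the last belongs to E2f2, a gene with a match that did not rise. Each is 30 bases, 5′ to 3′ on the gene's strand, with the core in capitals (GCGGGAA and GCGCCAA are the same cores read on the other strand). Where a gene had several matches, 1 is shown. The stretches of Mcm3, Lig1, Prim1 and E2f2 start or end within the first 50 transcribed bases.
Uhrf1, chr17:56303278-56303307, plus strand: tgctttctcgcTTCCCGCcacagcgccagc
Cdc6, chr11:98908002-98908031, plus strand: gccggtggagaGCGGGAAatcgcctggggt
Mcm3, chr1:20820275-20820304, minus strand: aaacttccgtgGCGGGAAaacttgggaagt
Mcm5, chr8:75109349-75109378, plus strand: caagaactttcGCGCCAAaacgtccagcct
Lig1, chr7:13279257-13279286, plus strand: cagaattagtgGCGCCAAgagaagaggggc
Prim1, chr10:128015189-128015218, plus strand: ggcctgtcttgTTCCCGCcaattctcgtgt
E2f2, chr4:136172294-136172323, plus strand: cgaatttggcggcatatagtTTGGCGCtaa

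The 250 bases before the start of Uhrf1 (chr17:56303087-56303336, plus strand) are shown in full as the promoter of the matched gene with the largest rise. The capitals mark its E2F core, which begins 48 bases before the start.
Uhrf1 promoter: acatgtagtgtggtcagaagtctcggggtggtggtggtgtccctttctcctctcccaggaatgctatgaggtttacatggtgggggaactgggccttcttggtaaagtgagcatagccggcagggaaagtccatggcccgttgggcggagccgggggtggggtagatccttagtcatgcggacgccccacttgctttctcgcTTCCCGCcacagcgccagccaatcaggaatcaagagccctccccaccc

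In vehicle, transcripts of the replication genes were lower at 6 h and 16 h than at 0 h, and with imiquimod they stood above the starting level by 16 h. Untreated cells were sampled only at 0 h, so time in culture and exposure to vehicle cannot be told apart. Levels are given in TMM-scaled CPM, a gene's counts as a share of its library after TMM scaling (a correction for differences in RNA composition between libraries). The summed level of the 47 genes was 2142 ± 30.7 CPM (SD, n = 3) in vehicle at 0 h, 1282 ± 33.3 at 6 h and 882 ± 15.9 at 16 h. With imiquimod it was 1721 ± 8.62 CPM at 6 h and 3478 ± 33.4 at 16 h. The lowest imiquimod library at 16 h held 3443 CPM and the highest vehicle library of that time 897 CPM. No library of the vehicle and imiquimod groups overlapped with a library of another of these groups in this sum. As a plain share of all counts, before any scaling, the genes made up 0.227% in vehicle at 0 h, 0.135% and 0.142% in vehicle and imiquimod at 6 h, and 0.0903% and 0.353% at 16 h. In bulk RNA, fewer cells in cycle and less of each transcript per cell cannot be told apart.

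**Figure D1:**
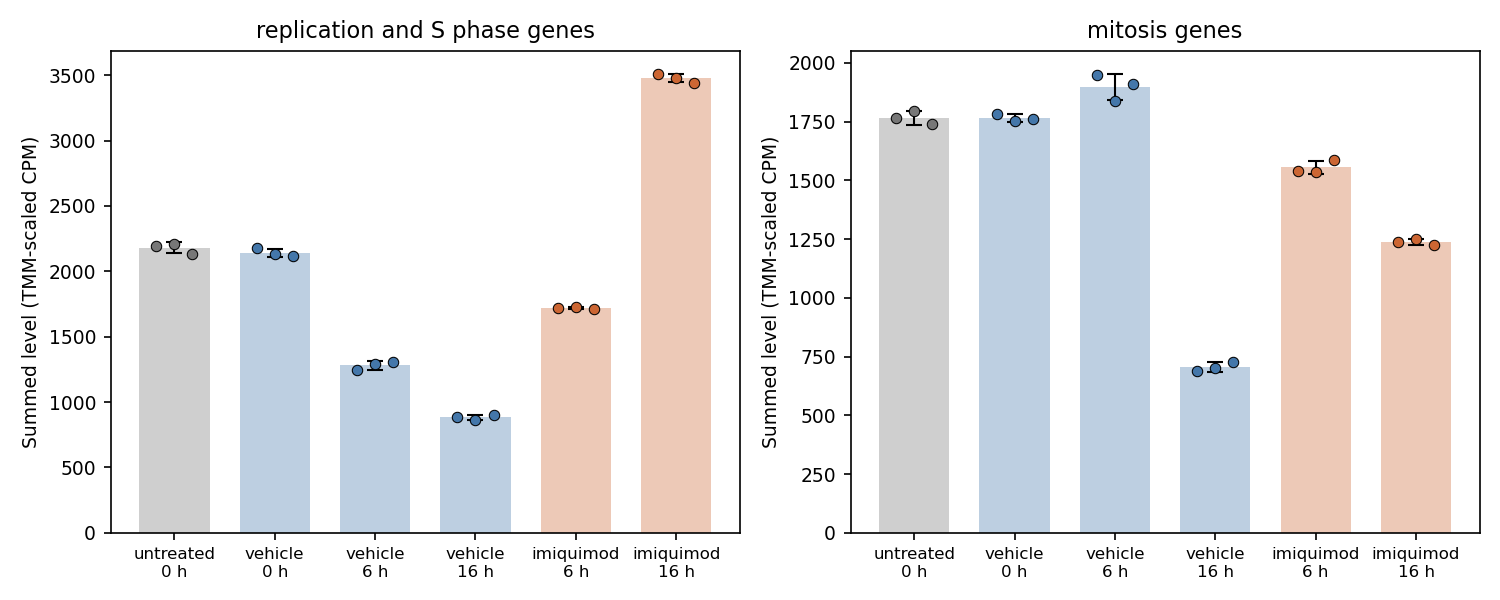
Summed TMM-scaled CPM of the 47 replication and S phase genes (left) and of 25 mitosis genes (right) in each library, by group; bars are means of 3 libraries, error bars are SD and points are libraries. The replication genes fell from 2142 to 882 CPM in vehicle over 16 h and reached 3478 CPM with imiquimod, whereas the mitosis genes reached 1238 CPM with imiquimod at 16 h against 1765 CPM at the start.

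At 0 h no gene of the list separated vehicle from untreated cells. None of the 47 genes was called between vehicle 0 h and untreated 0 h (edgeR, quasi-likelihood test, Benjamini-Hochberg adjusted p under 0.05). This was also the case for 0 of all 14876 genes tested (0% called higher), with 708 genes, 1 of them among the 47, at an unadjusted p under 0.05. The log2 differences ran from -0.24 (Orc6) to 0.15 (Exo1). DESeq2 called 0 genes as well.

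Vehicle-treated cells lost replication transcripts by 6 h. At that time 44 of the 47 genes had fallen from vehicle 0 h, against 26.9% of all genes tested, and none had risen, against 26% (edgeR, adjusted p under 0.05). Of these, 17 fell by 2-fold or more, against 4.03% of all genes. The median log2 change was -0.78, beside 0.00 over all genes. The genes not called were Gins3, Gins4 and Pola2, a subunit each of GINS and of polymerase alpha, at 0.10, -0.17 and -0.10.

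By 16 h in vehicle all 47 genes had fallen, against 30% of all genes, and 36 of them by 2-fold or more, against 6.22%. No gene of the list rose, against 28.4% of all genes. The median log2 change was -1.60, and the median gene stood at 33.0% of its level in vehicle at 0 h. The steepest declines were those of Orc1 (-3.43, SE 0.23), the largest subunit of the origin recognition complex, of the nuclease Exo1 (-2.81, SE 0.15) and of Mcm10 (-2.72, SE 0.11), which helps to activate the helicase. Rfc1, the large subunit of the clamp loader, declined least (-0.21, SE 0.040) and kept 86.4% of its starting level.

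Imiquimod for 6 h was associated with higher transcripts for most of the list, and with lower ones for a few. Of the 47 genes, 33 were higher than in vehicle at 6 h, against 37.7% of all genes, 5 were lower, against 39.2%, and 9 were not called (edgeR, adjusted p under 0.05). By 2-fold or more 12 genes were higher, against 16.2% of all genes, and 4 of those belonged to the licensing step. The median log2 change was 0.51, beside -0.04 over all genes. Without vehicle 6 h replicate 1 the number of lower genes was 8 in place of 5, with Mcm7, Gins4 and Brca2 added.

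The split at 6 h depended on how libraries were scaled. Imiquimod libraries at 6 h had TMM factors of 0.817 to 0.837, whereas those of vehicle at 6 h were 1.04 to 1.07. With plain library totals in place of TMM, 22 of the 47 genes were higher and 13 lower. Over all 14876 genes, 3706 were higher and 8222 lower in that fit. The median of all genes moved from -0.04 to -0.39, and the share of calls that were higher fell from 49.0% to 31.1%. The median of the list stood above that of all genes in both fits, at 0.51 against -0.04 with TMM and at 0.16 against -0.39 with library totals. At 16 h the factors were alike (1.01 to 1.03) and the counts were 45 and 1 in both fits.

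Of the 10 licensing genes 9 were higher at 6 h, and Mcm7 was not called (-0.08). Mcm7 was called lower without vehicle 6 h replicate 1 (-0.13) and with library totals (-0.43). Cdc6, which loads the MCM ring, stood at 7.54, 6.71 and 6.07 CPM in the vehicle libraries and at 15.4, 16.7 and 13.9 CPM with imiquimod, and rose by 1.17 on the log2 scale (SE 0.12, adjusted p = 3.93e-15). Mcm2 stood at 29.4, 28.8 and 31.9 CPM in vehicle and at 65.6, 67.1 and 66.1 CPM with imiquimod (log2 change 1.14, SE 0.058, adjusted p = 7.03e-31). Mcm3 went from 38.4, 44.4 and 43.7 CPM to 90.2, 92.1 and 90.4 CPM (1.11, SE 0.057). In each of these genes every imiquimod library was above every vehicle library, and the imiquimod mean of Mcm3 (90.9 CPM) lay next to its level before treatment (91.7 CPM). Orc1 had the largest change of the list at this time (1.78, SE 0.22), at levels of only 0.933, 1.70 and 1.23 CPM in vehicle and 4.31, 4.07 and 5.01 CPM with imiquimod. The rises of Mcm5 and Cdt1 (0.47 and 0.51) were not called with library totals.

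Both E-type cyclins and all 5 nucleotide enzymes of the list were higher at 6 h. Ccne2, an activating partner of Cdk2 at S phase entry, stood at 5.99, 4.09 and 3.94 CPM in vehicle and at 15.6, 15.6 and 13.9 CPM with imiquimod (log2 change 1.68, SE 0.13, adjusted p = 3.63e-20). Ccne1 went from 2.33, 2.47 and 2.87 CPM to 5.39, 5.71 and 5.79 CPM (1.14, SE 0.20, adjusted p = 3e-07). Tyms, the thymidylate synthase, stood at 12.1, 10.4 and 9.85 CPM in vehicle and at 27.4, 30.7 and 29.2 CPM with imiquimod (1.43, SE 0.086, adjusted p = 4.38e-26). In all of these the groups did not overlap, and Tyms also stood above its level of vehicle at 0 h (22.8, 23.7 and 23.2 CPM). The other nucleotide genes rose less: Tk1 by 0.43, Dut by 0.37, Rrm1 by 0.28 and Rrm2 by 0.21. Rrm2 was not called without imiquimod 6 h replicate 1 (0.15). With library totals Tk1 and Dut were not called, and Rrm1 and Rrm2 turned to -0.07 and -0.14, also not called.

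Uhrf1, which carries DNA methylation through replication by recruiting Dnmt1 to newly made DNA, stood at 34.8, 39.9 and 37.3 CPM in vehicle at 6 h and at 94.9, 101 and 94.1 CPM with imiquimod (log2 change 1.37, SE 0.052, adjusted p = 8.05e-39). Both subunits of the histone chaperone CAF-1 on the list rose with it, Chaf1b by 0.70 and Chaf1a by 0.48, the latter not called with library totals. Fen1, the flap nuclease of lagging-strand synthesis, stood at 29.4, 35.3 and 34.5 CPM in vehicle and at 74.1, 73.8 and 76.8 CPM with imiquimod (1.18, SE 0.060, adjusted p = 1.08e-30). Rfc3, a small subunit of the clamp loader, went from 8.01, 7.94 and 6.07 CPM to 14.2, 17.7 and 16.0 CPM (1.12, SE 0.12, adjusted p = 2.21e-14). All imiquimod libraries were above all vehicle libraries in these genes, and those of Fen1 and Rfc3 were also above the libraries of vehicle at 0 h. The rise of Rfc2 (0.39) was not called with library totals. Exons of Fen1 overlap on the opposite strand with Gm10143 over 78.8% of their length, and those of Chaf1a with Ubxn6 over 52.5%. The strand setting of the counting was not given in the sources used here, so reads of these pairs cannot be told apart.

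Fewer of the polymerase genes were called higher at this time. Of 6 polymerase and primase genes, Pole (0.90, SE 0.068) and Prim1 (0.25) rose, Pold1 fell, and Pola1, Pola2 and Prim2 were not called (-0.05, 0.07 and -0.02). With library totals 1 of the 6 was higher and 4 were lower, among them Pola1 (-0.40), Pola2 (-0.28) and Prim2 (-0.37). Prim1 lost its call in 5 of the alternatives tried, among them the fits without vehicle 6 h replicate 2, without vehicle 6 h replicate 3 and without imiquimod 6 h replicate 1, and stood at -0.10 with library totals. Pole, the catalytic subunit of the leading-strand polymerase, stood at 26.4, 25.6 and 26.3 CPM in vehicle and at 52.7, 45.3 and 47.6 CPM with imiquimod. Among helicase activators, Gins2 (1.06), Mcm10 (1.00), Cdc45 (0.85) and Gins1 (0.55) rose, while Gins3 (0.21) and Gins4 (-0.15) were not called. Gins1 was not called without vehicle 6 h replicate 2 or with library totals, whereas Gins3 was called higher without vehicle 6 h replicate 2, and Gins4 lower without vehicle 6 h replicate 1 or 3.

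The 5 genes that were lower with imiquimod at 6 h were Rfc1, E2f2, Rpa1, Pold1 and E2f1. Rfc1 stood at 139.9, 124 and 138 CPM in vehicle and at 67.3, 72.7 and 71.7 CPM with imiquimod (log2 change -0.92, SE 0.045, adjusted p = 1.29e-31). E2f2, an activating E2F factor, stood at 17.3, 18.2 and 18.5 CPM in vehicle and at 13.2, 11.6 and 10.9 CPM with imiquimod (-0.59, SE 0.10, adjusted p = 3.36e-07). Rpa1, the large subunit of the single-strand binding protein, went from 73.0, 71.9 and 69.4 CPM to 52.4, 56.8 and 55.3 CPM (-0.38, SE 0.052, adjusted p = 4.65e-10). These groups did not overlap. Pold1, the catalytic subunit of polymerase delta, stood at 52.7, 57.8 and 57.5 CPM against 46.6, 41.2 and 42.1 CPM (-0.37, SE 0.062). E2f1, the other activating E2F factor of the list, stood at 18.3, 21.6 and 20.4 CPM against 16.7, 13.9 and 16.7 CPM (-0.35, SE 0.089, adjusted p = 0.00033). In both, every imiquimod library lay below every vehicle library, with the nearest libraries of E2f1 at 16.7 and 18.3 CPM. Rpa1 was the exception within its role, since Rpa2, the middle subunit, rose by 0.25, a call that was lost when vehicle 6 h replicate 1, or in turn replicate 2 of imiquimod 6 h, was left out, with a value of -0.10 under library totals.

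By 16 h of imiquimod nearly the whole list stood above vehicle. Of the 47 genes, 45 were higher, against 39.1% of all genes, and 42 of these by 2-fold or more, against 16.6%. Rfc1 was lower, against 38.1% of all genes, and E2f2 was not called. The median log2 change was 2.40, beside 0.00 over all genes, and these counts were the same in every alternative run except the 2-fold rule. Every role was represented, with medians from 1.44 in the clamp and clamp loader to 2.83 in helicase activation.

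**Figure D2:**
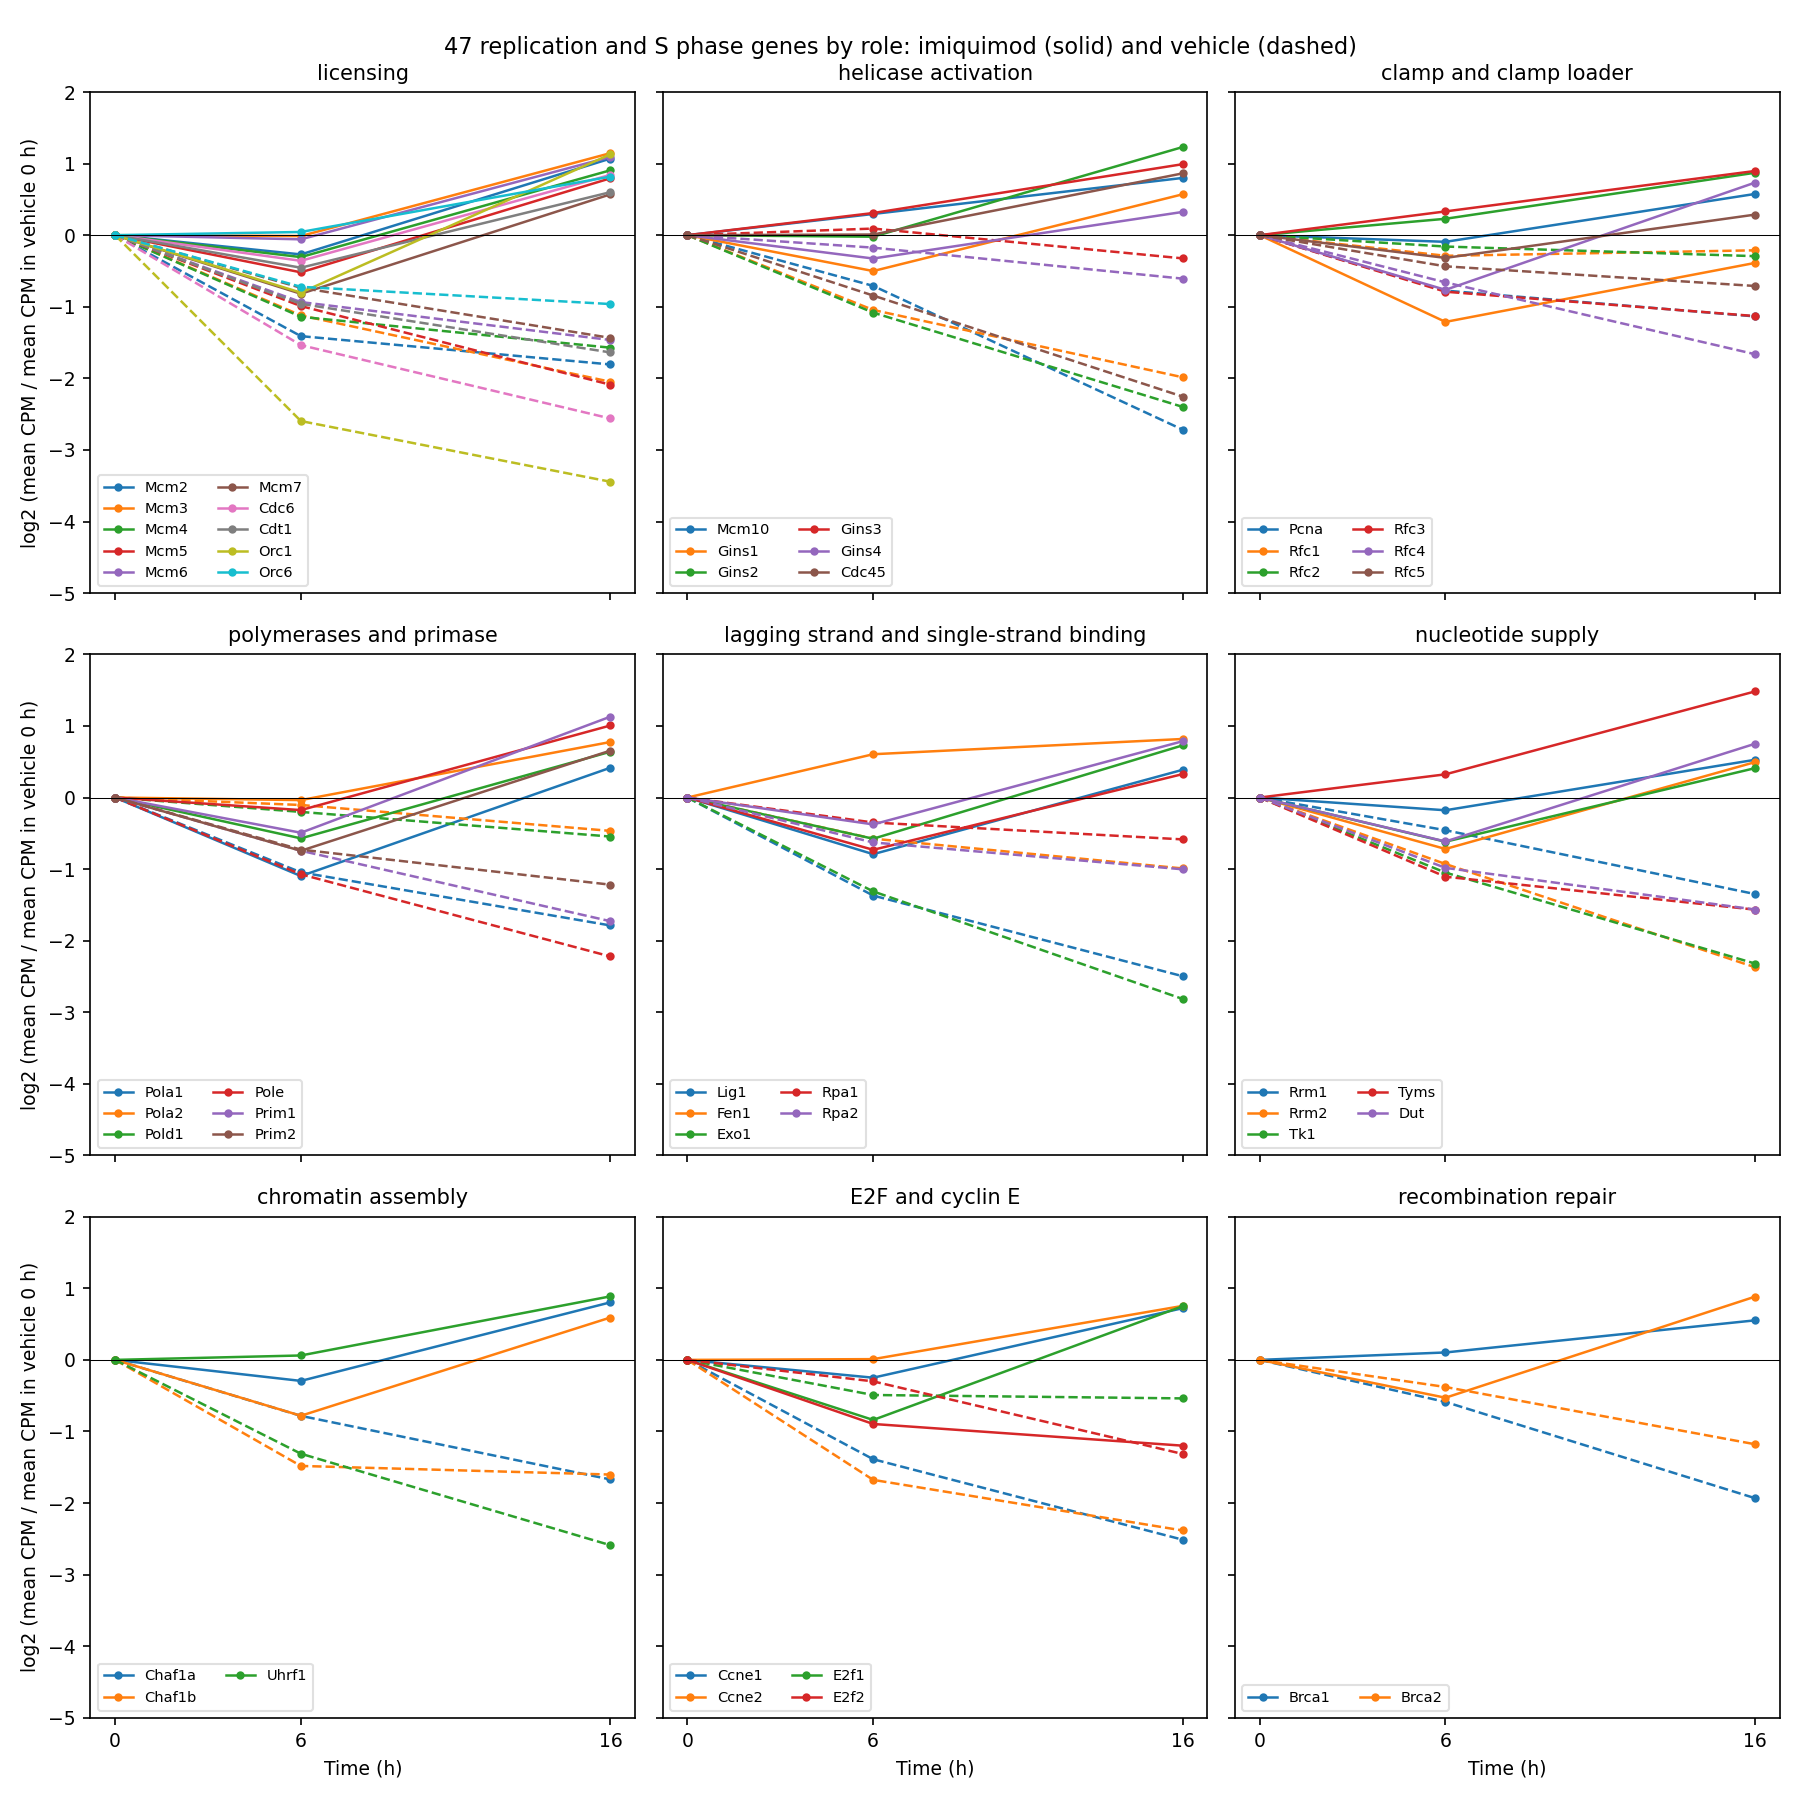
log2 of mean CPM relative to vehicle at 0 h for each of the 47 genes, in 9 panels by role, at 0, 6 and 16 h; solid lines are imiquimod, dashed lines vehicle, points are means of 3 libraries. Dashed lines end below 0 in every panel, solid lines are near or below 0 at 6 h for most genes and above 0 at 16 h for all but Rfc1 and E2f2.

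Orc1 showed the largest change, from 0.827, 0.709 and 0.609 CPM in vehicle to 17.5, 17.1 and 16.4 CPM with imiquimod (log2 change 4.56, SE 0.19, adjusted p = 2.27e-36). Its vehicle level rests on 24 reads over the 3 libraries, which limits the precision of the fold, while every imiquimod library was far above every vehicle library. Cdc6 went from 3.68, 2.75 and 3.57 CPM to 37.8, 35.3 and 32.6 CPM (3.40, SE 0.12). Mcm3 went from 22.1, 22.7 and 21.7 CPM to 201, 203 and 205 CPM (3.19, SE 0.058), and Mcm2 from 23.6, 22.0 and 22.9 CPM to 171, 166 and 165 CPM (2.88, SE 0.054). The remaining licensing genes ranged from 1.78 (Orc6) to 2.88 (Mcm5), and Mcm7, not called at 6 h, was higher by 2.01. About 9.49% of the 75-base windows of Mcm7 transcripts also occur in other genes, chiefly Gm5487, and the handling of such reads was not given in the sources used here.

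Gins2, Mcm10 and Cdc45 led the genes of helicase activation. Gins2 stood at 1.47, 1.77 and 1.57 CPM in vehicle and at 21.6, 19.4 and 18.6 CPM with imiquimod (log2 change 3.62, SE 0.16, adjusted p = 4.64e-34). Mcm10 went from 4.32, 3.28 and 3.57 CPM to 43.3, 42.0 and 42.6 CPM (3.52, SE 0.10), and Cdc45 from a mean of 4.36 to 37.8 CPM (3.11, SE 0.11). Gins3 and Gins4 changed least in this role, by 1.32 and 0.93. Exons of Gins2 overlap with Gse1 on the opposite strand over 67.3% of their length.

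Among polymerases, Pole went from 9.92, 12.6 and 12.8 CPM to 110.0, 114 and 106 CPM (log2 change 3.22, SE 0.070, adjusted p = 2e-55), and Prim1, the catalytic primase subunit, rose by 2.86. Pold1 was higher at this time, at 102, 96.7 and 102 CPM against 44.0, 40.9 and 47.3 CPM (1.18, SE 0.057, adjusted p = 4.36e-31). Exo1 had 31.1, 28.7 and 29.7 CPM with imiquimod against 3.12, 1.60 and 2.96 CPM (3.54, SE 0.13, adjusted p = 1.83e-39), and Lig1, the ligase of Okazaki fragments, rose by 2.88. Rpa1 had likewise turned, at 114, 112 and 117 CPM against 59.5, 63.0 and 59.3 CPM (0.91, SE 0.047, adjusted p = 4.79e-30). In all of these genes the imiquimod libraries lay above the vehicle libraries.

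Pcna, the sliding clamp, stood at 201, 192 and 192 CPM with imiquimod and at 65.1, 60.1 and 53.4 CPM in vehicle (log2 change 1.71, SE 0.056). It shares 13.8% of its 75-base windows with the pseudogene Pcna-ps2. Uhrf1 went from 14.1, 16.0 and 16.1 CPM to 167, 172 and 175 CPM (3.47, SE 0.057, adjusted p = 1.33e-63) and shares 9.05% of its windows with Gm5648. Tyms went from 8.09, 7.80 and 7.66 CPM to 65.7, 65.2 and 63.9 CPM (3.05, SE 0.080). The other nucleotide enzymes rose by 1.88 (Rrm1, the large subunit of ribonucleotide reductase) to 2.86 (Rrm2, its small subunit). Brca1, of the recombination repair pathway, went from 12.3, 8.87 and 8.96 CPM to 56.1, 57.5 and 55.1 CPM (2.49, SE 0.080, adjusted p = 9.2e-44), and Brca2 rose by 2.06.

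At 16 h E2f1 was higher with imiquimod and E2f2 was not called. E2f1 stood at 20.7, 19.2 and 18.4 CPM in vehicle and at 49.0, 48.1 and 45.2 CPM with imiquimod (log2 change 1.29, SE 0.072, adjusted p = 3.22e-28). E2f2 stood at 7.35, 8.69 and 10.7 CPM in vehicle and at 9.65, 9.39 and 9.94 CPM with imiquimod, groups that overlap (0.11, SE 0.12, adjusted p = 0.404). Among the 47 genes with imiquimod at 16 h, E2f2 stood farthest below its start, at 43.6% of vehicle 0 h. Ccne2 stood at 3.40, 2.84 and 2.35 CPM against 24.5, 25.0 and 26.0 CPM (3.14, SE 0.13), and Ccne1 at 0.368, 1.06 and 2.09 CPM against 11.5, 10.7 and 10.98 CPM (3.21, SE 0.20). The Ccne1 change was 3.92 without vehicle 16 h replicate 3 and 2.81 without vehicle 16 h replicate 1. Rfc1 stood at 137, 143 and 143 CPM in vehicle and at 126, 125 and 123 CPM with imiquimod, a small but separate difference (-0.18, SE 0.041, adjusted p = 7.8e-05).

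The log2 change with imiquimod was shifted upward at 16 h relative to 6 h in all 47 genes when the difference itself was tested (edgeR interaction contrast, adjusted p under 0.05), against 28.5% of all genes. In Rfc1 (-0.92 and -0.18) the imiquimod level rose towards that of vehicle. In E2f2 (-0.59 and 0.11) the imiquimod level did not rise between the times, and the vehicle level fell to near it. The difference of the log2 changes had a median of 1.80 and ran from 0.63 (Fen1, SE 0.088) to 2.80 (Exo1, SE 0.20). Fen1 had changed by 1.18 at 6 h and by 1.81 at 16 h. Pold1, Rpa1 and E2f1 passed the test in opposite directions at the 2 times, with differences of 1.55, 1.29 and 1.64. Across the 47 genes the 6 h and 16 h changes had a Spearman correlation of 0.74 (Pearson 0.79), as a description over genes that share libraries within each time. Over all 14876 genes these values were 0.75 and 0.82.

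**Figure D3:**
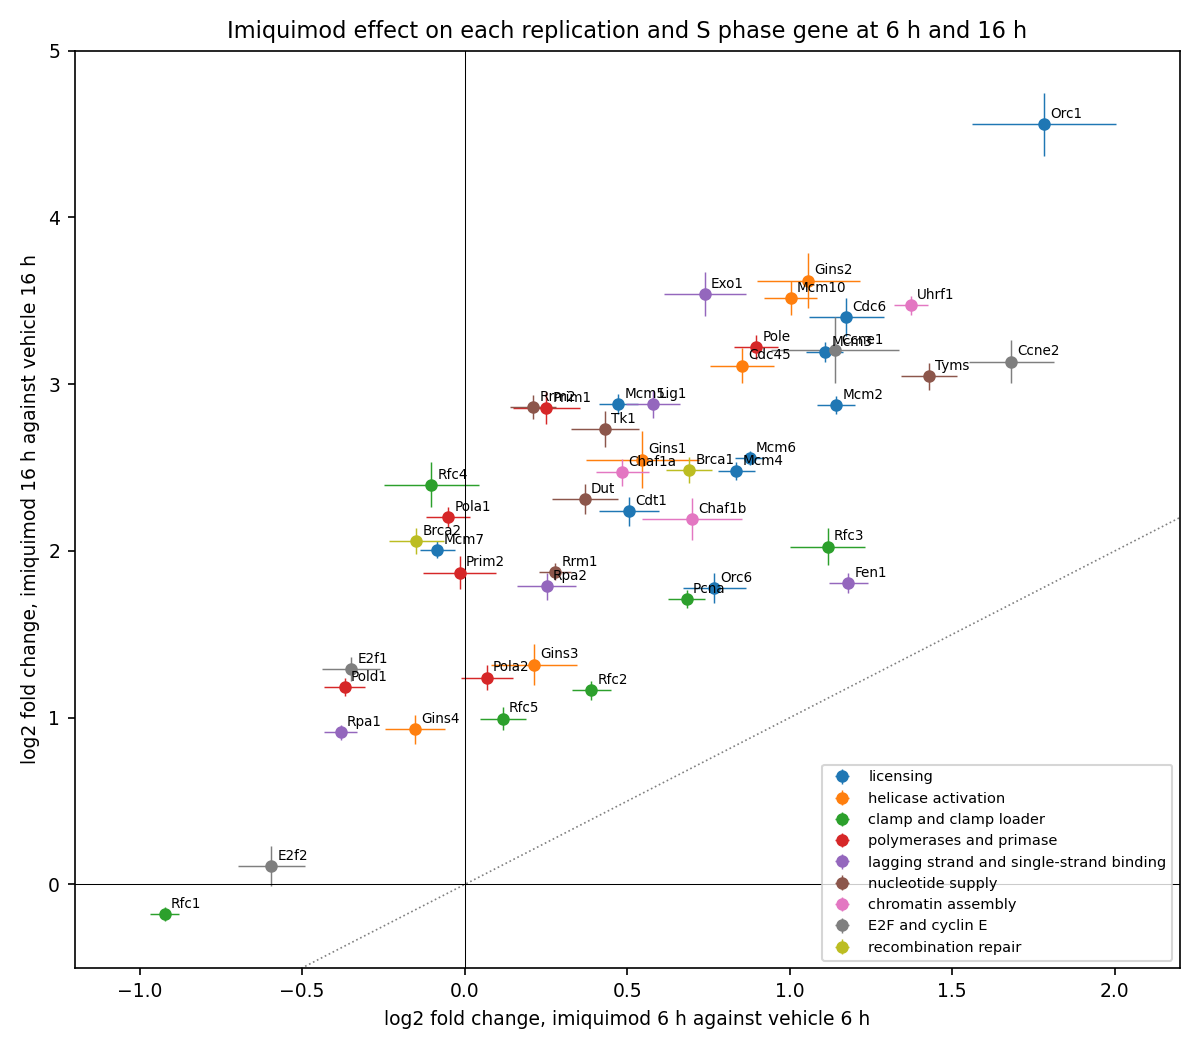
log2 fold change of imiquimod against vehicle for each of the 47 genes at 6 h (horizontal axis) and 16 h (vertical axis), coloured by role; bars are standard errors from edgeR and the dotted line marks equal changes. Every gene lies above the dotted line, Orc1 is at the top right (1.78 and 4.56) and Rfc1 at the bottom left (-0.92 and -0.18).

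Set against vehicle at 0 h, the same libraries show what the cells had at the start. With imiquimod at 6 h, 6 genes were above vehicle 0 h, against 36.7% of all genes, and 30 below, against 38.7%. The 6 were Fen1 (0.60), Rfc3 (0.33), Tyms (0.32), Gins3 (0.31), Mcm10 (0.30) and Rfc2 (0.23). With library totals 1 was above and 42 below, beside 3441 above and 8337 below of all 14876 genes. The median gene stood at 79.8% of its starting level with imiquimod at 6 h and at 57.8% in vehicle at 6 h. At 16 h of imiquimod 45 genes were above the start, against 38.8% of all genes, and 8 of them by 2-fold or more, against 14.5%. E2f2 and Rfc1 were below, against 36.8% of all genes. The median was 168.7% of vehicle 0 h and the highest was Tyms with 279% (log2 change 1.48, SE 0.063). The 8 genes at 2-fold or more were Tyms, Gins2, Mcm3, Prim1, Orc1, Mcm6, Mcm2 and Pole. These comparisons share their vehicle 0 h libraries with each other, and their imiquimod libraries with the comparisons above.

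Levels between genes were compared per kb of annotated exon, the union over all transcripts of a gene, so the order depends on the annotated length as well. In vehicle at 0 h Pcna was the most abundant transcript of the list, at 54.5 CPM per kb, followed by Mcm6 (29.0) and Rfc1 (27.1), and the lowest was Gins2 (2.06). With imiquimod at 16 h Pcna (81.2 CPM per kb), Mcm6 (61.9) and Mcm3 (54.1) led, and E2f2 was lowest (1.98). In vehicle at 16 h Orc1 was lowest, at 0.206 CPM per kb.

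The 6 subunits of the MCM2-7 ring, which assemble in equal numbers, differed by 2.48 to 3.52 times in their mean levels per kb in the 6 groups. The highest (Mcm6) exceeded the lowest (Mcm2) by 2.53 times in vehicle at 0 h, 3.52 times in vehicle at 6 h, 3.21 times in vehicle at 16 h and 2.57 times with imiquimod at 16 h. In the clamp loader Rfc1 exceeded Rfc3 per kb by 7.72 times at 0 h and by 14.6 times in vehicle at 16 h. With imiquimod this ratio was 2.65 at 6 h and 3.17 at 16 h, as Rfc1 was lower and Rfc3 higher than in vehicle. In GINS, Gins4 exceeded Gins2 by 7.55 times in vehicle at 0 h, by 26.1 times in vehicle at 16 h and by 4.03 times with imiquimod at 16 h. The ratios between subunits are descriptions of mean levels, with no test.

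**Figure D4:**
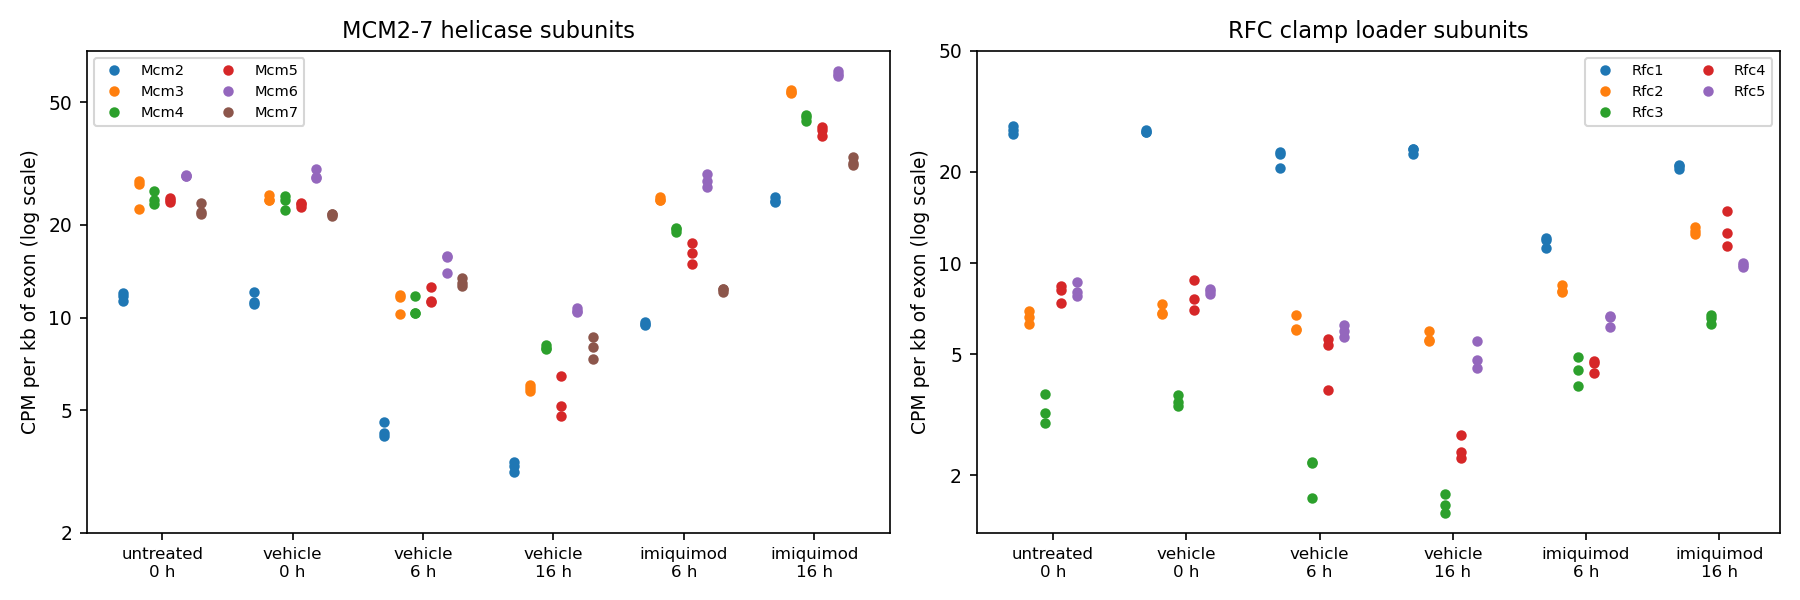
CPM per kb of exon on a log axis for the 6 MCM2-7 subunits (left) and the 5 clamp loader subunits (right); each point is 1 library, in the 6 groups along the horizontal axis. All 6 MCM subunits are below the start in vehicle at 16 h and above it with imiquimod at 16 h, whereas the group means of Rfc1 lie between 20.7 and 27.4 CPM per kb except with imiquimod at 6 h (11.7).

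Genes with and without the E2F letters read above both rose. Genes with a core in their window had a median log2 change of 2.22 at 16 h (20 of 22 higher), and those in the table without one a median of 2.52 (16 of 16 higher). The 9 genes that were not matched in the table had a median of 2.55 (9 of 9 higher). The exceptions E2f2 and Rfc1 both hold a core, 41 and 28 bases after the start.

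Other genes of replication outside the list were mostly higher at 16 h. Of 58, covering origin recognition, fork protection, accessory polymerase subunits, mismatch repair and checkpoint genes, 30 were higher and 14 lower with imiquimod at 6 h, and 54 higher and 2 lower at 16 h. For these and the next lists, the shares over all genes were 37.7% higher and 39.2% lower at 6 h, and 39.1% and 38.1% at 16 h. With library totals the 6 h counts were 19 and 29. For this and the next lists, that fit called 3706 of all 14876 genes higher and 8222 lower. Among the largest changes at 16 h were those of Cdca7 (4.25), which helps a chromatin remodeller keep DNA methylated, the checkpoint kinase Chek1 (3.67) and the fork protector Timeless (3.30). At 6 h Cdca7 (1.96) and Timeless (1.87) rose, whereas the Okazaki nuclease Dna2 (-1.89) and the small polymerase delta subunit Pold4 (-1.68) fell. Dna2 was not called at 16 h (-0.03, adjusted p = 0.762), at 20.5 ± 1.39 CPM against 20.9 ± 0.629 (SD, n = 3).

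Of 30 further nucleotide synthesis genes tested, 19 were higher and 7 lower at 6 h, and 24 higher and 4 lower at 16 h. With library totals the 6 h counts were 12 and 14. Dck, the deoxycytidine kinase of the salvage pathway, rose from 26.8 to 192 CPM at 6 h (2.84), and Mthfd2, of mitochondrial folate metabolism, from 34.5 to 196 CPM (2.51), while the CTP synthase Ctps2 fell by 2.36 on the log2 scale. At 16 h Shmt1 (3.88) and Dctd (6.63) rose, the latter from 0.205 ± 0.182 to 21.6 ± 1.02 CPM (SD, n = 3), so that its fold rests on a handful of vehicle reads. Samhd1, which degrades the deoxynucleotides that these enzymes make, rose by 1.75 at 6 h, from 467 to 1574 CPM, and by 0.20 at 16 h.

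Of 30 E2F regulators, among them the repressive factor E2f7, the E2F partner Tfdp2 and Rbl1, 13 were higher and 10 lower at 6 h. These shares were near those of all genes (37.7% and 39.2%). At 16 h 21 were higher and 7 lower. With library totals the 6 h counts were 9 and 18. The D-type cyclin Ccnd2 stood at 42.9 ± 4.54 CPM in vehicle at 6 h and at 4219 ± 110 with imiquimod (log2 change 6.62, SE 0.045), and was still higher by 5.88 at 16 h. Ccnd1 rose at 6 h (1.47) and was not called at 16 h (0.00, adjusted p = 0.993). Ccnd3 rose by 0.27 at 6 h, less than the shift that library totals bring at that time, and by 0.70 at 16 h. Myc rose by 4.31 and 5.05. Cdkn1a, the p21 inhibitor of cyclin-dependent kinases, stood at 22.1 CPM in vehicle and at 278 CPM with imiquimod at 6 h (3.65, SE 0.053), and rose by 1.90 at 16 h.

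The retinoblastoma family differed among itself. Rb1 fell by 1.05 on the log2 scale at 6 h and by 0.94 at 16 h, and Rbl1 (p107), a member whose transcript itself is known as an E2F target, rose by 1.58 and 2.32. Tfdp2, a partner of E2F proteins, fell by 3.30 at 6 h and by 1.39 at 16 h. The repressive factors E2f7 and E2f8 were not called at 6 h (0.09 and -0.14, adjusted p = 0.419 and 0.0649) and rose at 16 h (1.67 and 1.19). In vehicle at 16 h both had fallen, by 2.49 and 1.74.

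Genes of mitosis had the opposite balance of calls at the early time. Of 25, 19 were lower and 2 higher with imiquimod at 6 h, the largest falls being those of the centromeric histone Cenpa (-1.36), the cyclin Ccnb2 (-1.22), the anaphase activator Cdc20 (-1.21) and Cenpf (-1.02). In vehicle, 15 of the 25 had risen between 0 h and 6 h, against 26% of all genes, and 1 had fallen, against 26.9%. At 16 h 19 of 25 were higher with imiquimod and 3 lower, led by Cdk1 (1.80), Top2a (1.71), Ttk (1.52) and Bub1 (1.49). All 25 had fallen in vehicle since 0 h, against 30% of all genes. Against vehicle at 0 h, however, 18 of the 25 were lower with imiquimod at 16 h and 2 higher, against 36.8% and 38.8% of all genes. The replication genes had 45 higher and 2 lower in that comparison. The summed level of the mitosis genes was 1238 ± 12.5 CPM with imiquimod at 16 h, 705 ± 20.4 in vehicle at 16 h and 1765 ± 15.6 in vehicle at 0 h (SD, n = 3). The proliferation marker Mki67 stood at 275 CPM with imiquimod at 16 h, 141 CPM in vehicle and 449 CPM at the start.

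**Figure D5:**
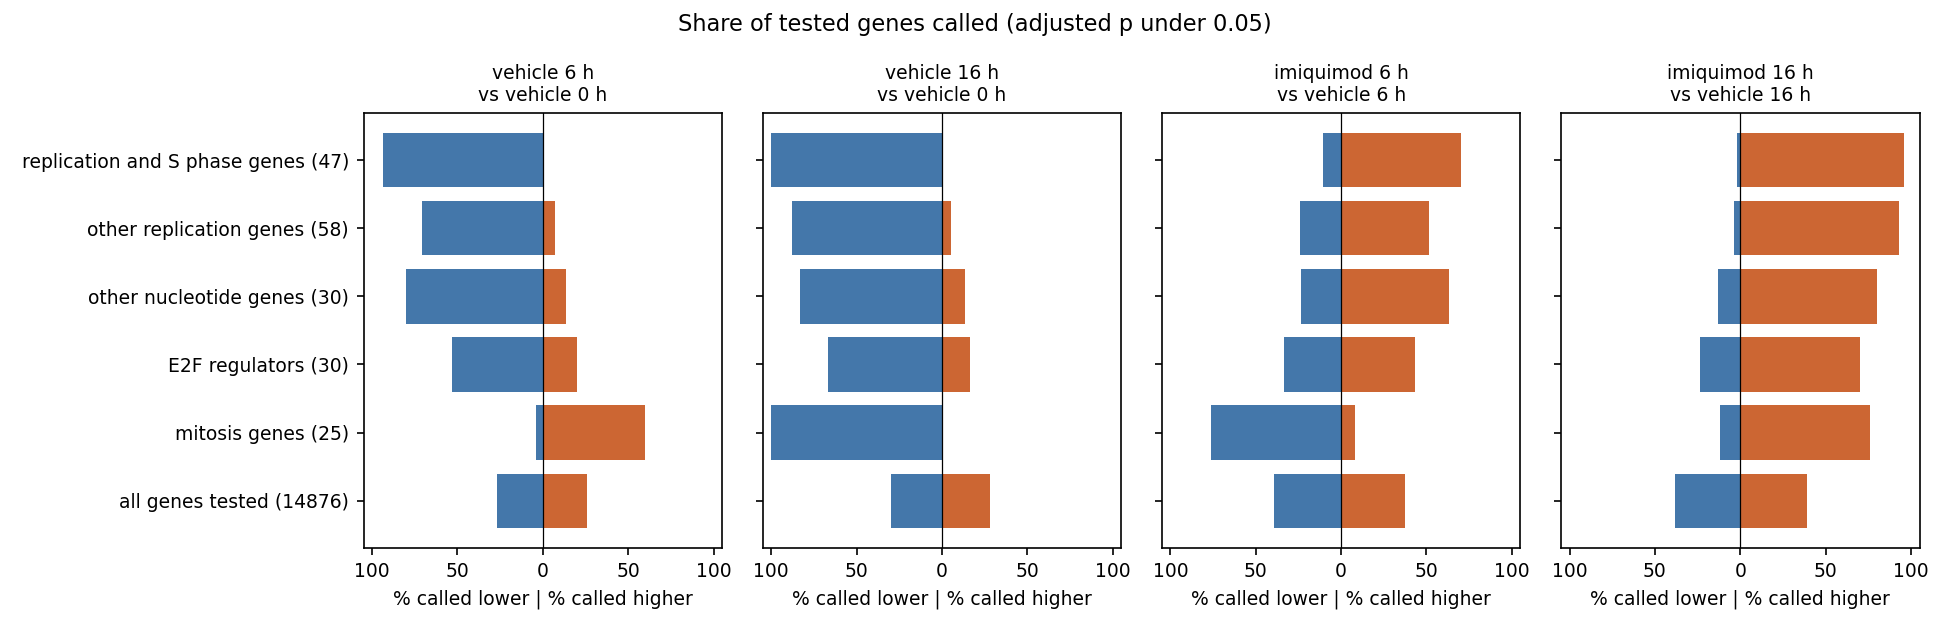
Percent of tested genes called higher (right, orange) and lower (left, blue) at an adjusted p under 0.05 for the replication genes, 4 related lists and all genes, in 4 comparisons; the number tested is given with each name. Replication genes are nearly all lower in vehicle over time and nearly all higher with imiquimod at 16 h, while at 6 h the mitosis genes are mostly lower with imiquimod (19 of 25) and the replication genes mostly higher (33 of 47).

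Markers of the cells in the culture also differed between the groups, not always in the direction of the listed genes. Their part in the changes of the list was not tested. All 14 pDC markers had counts, summing to 6454 to 6682 CPM in vehicle at 0 h, 7467 to 7544 in vehicle at 16 h and 3002 to 3063 with imiquimod at 16 h. Of 12 progenitor markers 11 had counts (Spink2 was at 0 everywhere), summing to 327 to 332 CPM in vehicle at 0 h, 342 to 353 in vehicle at 16 h and 161 to 169 with imiquimod at 16 h. The 10 monocyte and macrophage markers summed to 1921 to 1985 CPM in vehicle and 93.6 to 109.9 with imiquimod at 16 h, the 9 cDC1 markers to 3627 to 3644 and 2162 to 2213, the 8 cDC2 markers to 427 to 430.3 and 159 to 161, and the 10 B cell markers to 118 to 148 and 193 to 205. Single genes weighed heavily in these sums. At 16 h Ccr2, of the monocyte list, stood at 1729 CPM in vehicle and 28.5 with imiquimod. Irf8, of the cDC1 list, stood at 2378 and 1622, and Pax5, of the B cell list, at 21.3 and 132.9. At that time 2 of 7 monocyte and macrophage markers tested were higher and 5 lower. For cDC1 these were 0 and 8 of 9, for cDC2 1 and 6 of 8, and for B cells 1 and 6 of 7. Over all genes 39.1% were higher and 38.1% lower. T and NK cell markers reached at most 16.6 CPM, and neutrophil and erythroid markers at most 1.83 and 2.66 CPM, with Retnlg at 0. Ribosomal RNA took 16.6% and 17.3% of counts in vehicle at 6 h and 16 h, 12.3% and 12.8% with imiquimod and 11.5% in vehicle at 0 h. With ribosomal RNA genes left out the counts of the list were 33 higher and 5 lower at 6 h and 45 and 1 at 16 h.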

How the data were processed

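The authors deposited raw counts, whole numbers of reads per gene, which were taken unchanged. The submitters' processing notes name STAR and mm10. Versions, the counting program with its strand and multi-match settings, and the annotation are not given in the sources used here. Coordinates and exon lengths are from GENCODE M21, in which 97.6% of the identifiers were found.

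One model of all 18 libraries was fitted with the quasi-likelihood test of edgeR 4.0.16 under R 4.3.3, after filterByExpr with a minimum count of 10 (14876 genes) and TMM scaling, with 8 contrasts. Calls were made at an adjusted p under 0.05 (Benjamini-Hochberg, over all genes tested). SE is the absolute log2 change divided by the square root of F. Fits were tested on simulated data in which few genes changed, in a single group. That test does not cover a change as broad as that of imiquimod at 6 h, where the scaling mattered. Depth ran from 10609741 to 13447018 counts.

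The genes, the related lists and the rule for naming were chosen with earlier results of these data known. Values per library were given for the 8 genes with the largest called change in each imiquimod comparison (mean of 5 CPM or more), those called in opposite directions, the leading gene of each other role, and the exceptions Rfc1, E2f2, Orc1 at 6 h and Pcna, added after their values were seen. From related lists, up to 4 genes per comparison and a fixed panel were named, and a few of these are not reported here. Alternatives were DESeq2 1.42.0, other scalings and filters, a 2-fold rule, ribosomal RNA genes left out, a fit of only the groups compared, a replicate block, and leaving out each library. No 2 libraries agreed within sampling noise.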

Additional observations from a re-analysis of the deposited data

Results flagged for a closer look

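The effect of imiquimod differed between 6 h and 16 h in 47 of 47 replication and S phase genes, by a test of the difference itself (edgeR interaction contrast, adjusted p under 0.05), with a positive difference, 16 h minus 6 h, in each. In Rfc1 (-0.92 and -0.18) and E2f2 (-0.59 and 0.11) the change at 16 h was nearer to 0. For the genes given by library the differences of the log2 changes, 16 h minus 6 h, were 2.80 for Exo1, 2.78 for Orc1, 2.56 for Gins2, 2.51 for Mcm10, 2.33 for Pole, 2.23 for Cdc6, 2.10 for Uhrf1, 2.08 for Mcm3, 2.07 for Ccne1, 1.80 for Brca1, 1.73 for Mcm2, 1.64 for E2f1, 1.62 for Tyms, 1.55 for Pold1, 1.45 for Ccne2, 1.29 for Rpa1, 1.03 for Pcna, 0.91 for Rfc3, 0.75 for Rfc1, 0.71 for E2f2 and 0.63 for Fen1. Without vehicle 16 h replicate 3 the difference of Ccne1 was 2.78. No group had more than 3 libraries, so single libraries were not screened as outliers.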

How the results depend on the processing

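With imiquimod at 16 h, and for the difference between the times, all 47 genes kept their direction and call under every alternative run except the 2-fold rule. At 6 h 27 of 47 kept their call or its absence throughout. Of 658 single-gene alternatives at 6 h, 625 left the call as it was, 15 lost it, 12 gained one in the same direction and 6 changed sign with a call in at least 1 of the 2 fits (sign changes without a call, as in Gins3 and Prim2, are not counted), these 6 with library totals: Rfc5 (-0.23), Pola2 (-0.28), Prim1 (-0.10), Rrm1 (-0.072), Rrm2 (-0.14) and Rpa2 (-0.10). Library totals also gave 13 lower genes at 6 h, beside 8222 of all 14876 genes. For imiquimod 6 h against vehicle 0 h they gave 1 higher gene, beside 3441 of all genes. With the 2-fold rule, the genes called were 12 higher and 0 lower at 6 h and 0 lower at 16 h against vehicle. Against vehicle 0 h they were 17 lower in vehicle at 6 h, 0 higher and 2 lower with imiquimod at 6 h, and 8 higher and 1 lower with imiquimod at 16 h. Leaving out 1 library at a time gave 31 to 33 higher and 5 to 8 lower genes at 6 h, the 8 without vehicle 6 h replicate 1. Same-numbered libraries did not deviate together (correlations from -0.0728 to 0.0398 over 45 pairs). With the number as a replicate block the list had 33 higher and 5 lower genes at 6 h and 45 and 1 at 16 h, and 46 lower in vehicle at 16 h in place of 47. The lowest count of a listed gene in 1 library was 4, so folds of the rarest genes are the least precise.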
